A study of Mus musculus with 6 samples.

Results

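The flavin-containing monooxygenases Fmo1, Fmo2, Fmo4 and Fmo5 were examined in regenerating mouse liver, as 4 of the 16858 genes in the table of counts. They were chosen by gene name, at a time when their counts in these libraries were already known, so their own differences between the genotypes are given as a description and not as a test. Livers came from Aqp5-/- mice, a germline knockout made with CRISPR/Cas9 in fertilized eggs, and from Aqp5+/+ (C57BL/6) mice, which carry aquaporin 5, a channel for water and hydrogen peroxide. Both genotypes had undergone 70% partial hepatectomy (PHx) and were sampled 72 h later, and the methods give 3-month-old male mice for PHx. Each genotype had 3 libraries of whole-liver RNA depleted of ribosomal RNA, and neither the labels nor the methods say whether these came from separate mice.

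Flavin-containing monooxygenases are enzymes of the endoplasmic reticulum that hold an FAD cofactor, take electrons from NADPH and bind oxygen as a hydroperoxy-flavin before a substrate arrives. They pass an oxygen atom to soft nucleophiles, mostly the nitrogen and sulfur atoms of drugs, dietary amines and thiols, and the waiting intermediate can also break down to hydrogen peroxide. In mice, hepatic activity of this enzyme family is known to be higher in females than in males. FMO1 has the broadest range of drug substrates and oxidizes hypotaurine to taurine, FMO2 is the main form in the lung of most mammals, FMO5 favours oxygen insertion beside a carbonyl group (Baeyer-Villiger oxidation), and FMO4 is the least studied of these enzymes.

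Library totals ranged from 11293358 to 15550006 counts in Aqp5-/- livers and from 7130831 to 13526632 counts in Aqp5+/+ livers. Albumin, the main plasma protein of hepatocytes, took 7.07 to 8.43% of the counts in Aqp5-/- libraries and 3.66 to 7.01% in Aqp5+/+ libraries. Of 10 hepatocyte markers all were tested, and 0 were called by edgeR, DESeq2 or limma or had an unadjusted p under 0.05. The genotypes differed in sex-linked expression: 4 Y-linked genes summed to 0.869 to 1.19 CPM (counts scaled to a common library size) in Aqp5-/- libraries, against 287 to 471 CPM in Aqp5+/+ libraries, which does not match the statement that the mice were male. Genotype and sex-linked expression therefore cannot be told apart for any value that follows. Aqp5-/- replicate 3 stood apart, with 2434 CPM of stellate cell and fibroblast markers (493 to 685 CPM in the other libraries) and 425 CPM of cholangiocyte markers (51.4 to 192 CPM in the others). Aqp5+/+ replicate 2 had the smallest total and 71.8 CPM of 6 proliferation markers, against 246 to 406 CPM in the other libraries.

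Fmo4, Fmo1 and Fmo2 lie in this order on the minus strand of chromosome 1, within 106 kb (GRCm38, 162793188 to 162898726), while Fmo5 lies alone on the plus strand of chromosome 3 (97628804 to 97655282). On chromosome 1, Fmo4 (ENSMUSG00000026692) runs from 162793188 to 162813972, Fmo1 (ENSMUSG00000040181) from 162829561 to 162866610 and Fmo2 (ENSMUSG00000040170) from 162874317 to 162898726. In GENCODE vM21 no other gene overlaps any of the 4, and no stretch of 50 bases is shared between their transcripts, so reads of 1 member would not be expected to be counted for another. Of the stretches of 50 bases in Fmo1 transcripts, 4.85% also occur in transcripts of other genes, none of them a monooxygenase, and 0.434% of those of Fmo5 do. The promoter windows of Fmo2 are shown because this gene differed most between the genotypes, and that of Fmo4 because it lies in the same cluster and differed least. Each window holds 250 bases before and 50 after a RefSeq transcription start (GRCm38.p6, minus strand, 5′ to 3′), and capitals mark matches to TATAAA, TTCNNNGAA (STAT5), GTTAAT (HNF1), CAAAGTCCA (HNF4) or TGTTTAC (FOXA) on either strand.
Fmo2, start 1, chr1:162898709-162899008: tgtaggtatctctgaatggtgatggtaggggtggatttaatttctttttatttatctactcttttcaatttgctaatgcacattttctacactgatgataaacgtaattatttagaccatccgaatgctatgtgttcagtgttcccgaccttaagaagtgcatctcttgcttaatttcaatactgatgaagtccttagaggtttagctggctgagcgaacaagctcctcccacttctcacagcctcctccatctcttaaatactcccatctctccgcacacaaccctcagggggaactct
Fmo2, start 2, chr1:162898444-162898743: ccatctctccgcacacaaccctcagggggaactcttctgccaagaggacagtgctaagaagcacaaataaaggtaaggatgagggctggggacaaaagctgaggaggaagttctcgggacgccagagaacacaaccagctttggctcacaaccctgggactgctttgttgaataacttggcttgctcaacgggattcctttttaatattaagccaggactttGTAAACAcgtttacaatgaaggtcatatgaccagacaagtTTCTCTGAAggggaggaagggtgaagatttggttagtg
Fmo4, chr1:162812500-162812799: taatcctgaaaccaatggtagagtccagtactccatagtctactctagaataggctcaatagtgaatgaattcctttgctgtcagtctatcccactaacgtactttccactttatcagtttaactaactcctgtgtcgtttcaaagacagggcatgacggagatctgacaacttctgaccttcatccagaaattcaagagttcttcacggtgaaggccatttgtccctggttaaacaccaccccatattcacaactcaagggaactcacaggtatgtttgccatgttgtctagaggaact
In the window of the second Fmo2 start, 1 match to the FOXA letters began 28 bases before the start and 1 match to the STAT5 letters 12 bases after it. These letters occur in 3.65% and 8.30% of the 32851 promoter windows of this length. The first Fmo2 window and the Fmo4 window held none of the 5 motifs, and the Fmo5 window held 1 match to TATAAA, which 13.6% of windows have. A match is only a description of these letters. Fmo1 was not among the windows used here.

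Fmo2 differed most of the 4 between the genotypes and was higher in every Aqp5-/- library than in any Aqp5+/+ library. It had 982, 1810 and 3479 counts in Aqp5-/- replicates 1, 2 and 3, against 327, 231 and 251 counts in Aqp5+/+ replicates 1, 2 and 3. After scaling these were 79.7, 157 and 207 CPM in Aqp5-/- livers and 27.4, 34.7 and 20.4 CPM in Aqp5+/+ livers. The groups did not overlap, and the lowest Aqp5-/- library lay 2.30-fold above the highest Aqp5+/+ library. Fmo2 averaged 148 ± 64.2 CPM in the Aqp5-/- libraries, against 27.5 ± 7.13 CPM in the Aqp5+/+ libraries (SD, n = 3 each), and its log2 fold change in the edgeR fit was 2.43 (standard error 0.38), a 5.39-fold difference. This fold change was larger than those of 99.2% of the 12353 genes tested. The Aqp5-/- libraries also spread more widely, with 2.60-fold between their highest and lowest, against 1.70-fold among Aqp5+/+ libraries. Leaving out 1 library at a time kept the log2 fold change of Fmo2 between 2.11 (without Aqp5-/- replicate 3) and 2.73 (without Aqp5-/- replicate 1).

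Fmo1, the hepatic form with the broadest substrate range, was higher in Aqp5-/- livers by a smaller margin. It was at 419, 633 and 506 CPM in Aqp5-/- replicates 1, 2 and 3, against 374, 235 and 312 CPM in Aqp5+/+ replicates 1, 2 and 3. The groups did not overlap, although the lowest Aqp5-/- library stood only 1.12-fold above the highest Aqp5+/+ library. Fmo1 averaged 519 ± 108 CPM in the Aqp5-/- libraries, against 307 ± 69.6 CPM in the Aqp5+/+ libraries (SD, n = 3 each), with a log2 fold change of 0.76 (standard error 0.29). It was 0.58 without Aqp5-/- replicate 2, the highest library, and 0.59 without Aqp5+/+ replicate 2, the lowest.

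Fmo5, the Baeyer-Villiger enzyme, had the most counts of the 4 in every library. It was at 1238, 1559 and 2892 CPM in Aqp5-/- replicates 1, 2 and 3, against 1128, 655 and 1382 CPM in Aqp5+/+ replicates 1, 2 and 3. The groups overlapped, since Aqp5-/- replicate 1 was below Aqp5+/+ replicate 3. The means were 1896 ± 877 CPM in the Aqp5-/- libraries, against 1055 ± 369 CPM in the Aqp5+/+ libraries (SD, n = 3 each), and the log2 fold change was 0.85 (standard error 0.43). Much of it rested on the libraries that stood apart: leaving out Aqp5-/- replicate 3 gave 0.41, leaving out Aqp5+/+ replicate 2 gave 0.59, and leaving out both gave 0.16.

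Fmo4, the least abundant member by counts in 4 of the 6 libraries, did not separate the genotypes. It was at 16.6, 38.2 and 19.9 CPM in Aqp5-/- replicates 1, 2 and 3, against 29.8, 16.2 and 21.1 CPM in Aqp5+/+ replicates 1, 2 and 3. Aqp5-/- replicate 1 and Aqp5+/+ replicate 2 were nearly level at the bottom, and Aqp5-/- replicate 2 was the highest. The means were 24.9 ± 11.7 CPM in the Aqp5-/- libraries, against 22.4 ± 6.86 CPM in the Aqp5+/+ libraries (SD, n = 3 each), with a log2 fold change of 0.15 (standard error 0.37) that turned to -0.30 without Aqp5-/- replicate 2 and to -0.03 without Aqp5+/+ replicate 2.

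**Figure D1:**
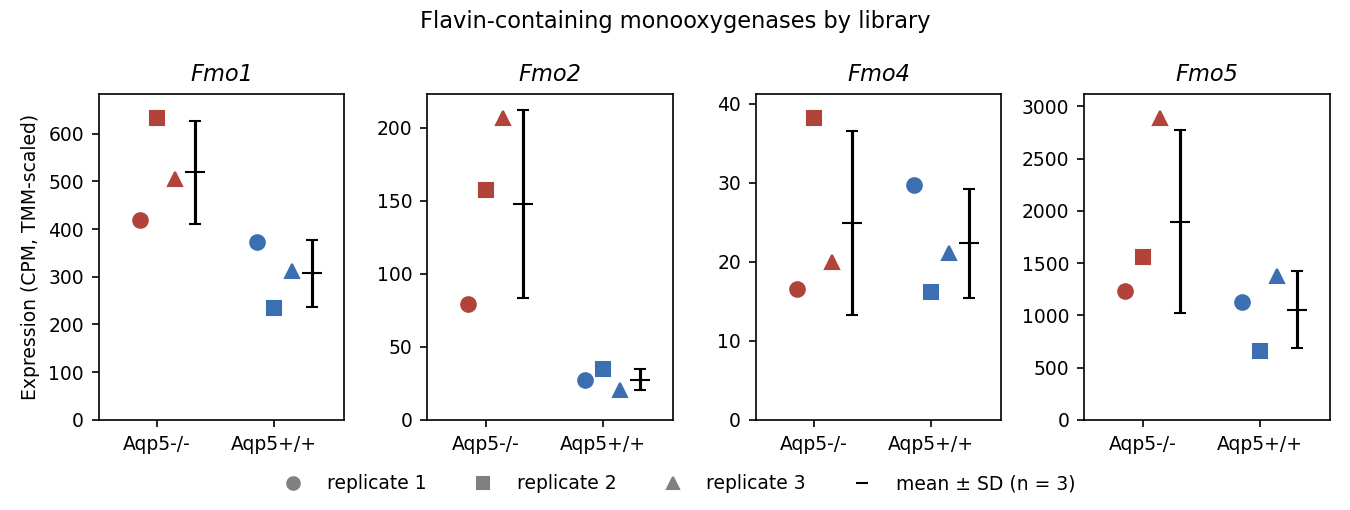
Expression of Fmo1, Fmo2, Fmo4 and Fmo5 in CPM (linear axes from 0, a scale of its own in each panel), with a point for each library (Aqp5-/- left, Aqp5+/+ right; the marker gives the replicate number) and a bar for the mean ± SD of 3 libraries. The Aqp5-/- points of Fmo2 sit between 79.7 and 207 CPM, all above the Aqp5+/+ points, while those of Fmo4 and Fmo5 overlap the Aqp5+/+ points.

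Of the 4 members, 1 was called in this comparison (Fmo2, higher), at an adjusted p under 0.05 from edgeR's quasi-likelihood test over all genes, where 0.332% of the 12353 tested genes were called. For 2 of the 4 (Fmo1 and Fmo2) the libraries of the genotypes did not overlap, as for 14.7% of all tested genes in either direction and 6.93% with all Aqp5-/- libraries above. Because the family was picked with these values in view, nothing is read from either count. The call of Fmo2 depended on the libraries and settings. It was absent when Aqp5-/- replicate 2 or 3 or any single Aqp5+/+ library was left out, with the replicate number as a block and with a filter at a mean of 1 CPM, while DESeq2 and limma made it. Over all tested genes the log2 fold changes had a median of 0.01 and quartiles of -0.29 and 0.33. The log2 fold changes of Fmo1 and Fmo5 exceeded those of 90.5% and 92.0% of tested genes, and that of Fmo4 exceeded 62.1%.

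**Figure D2:**
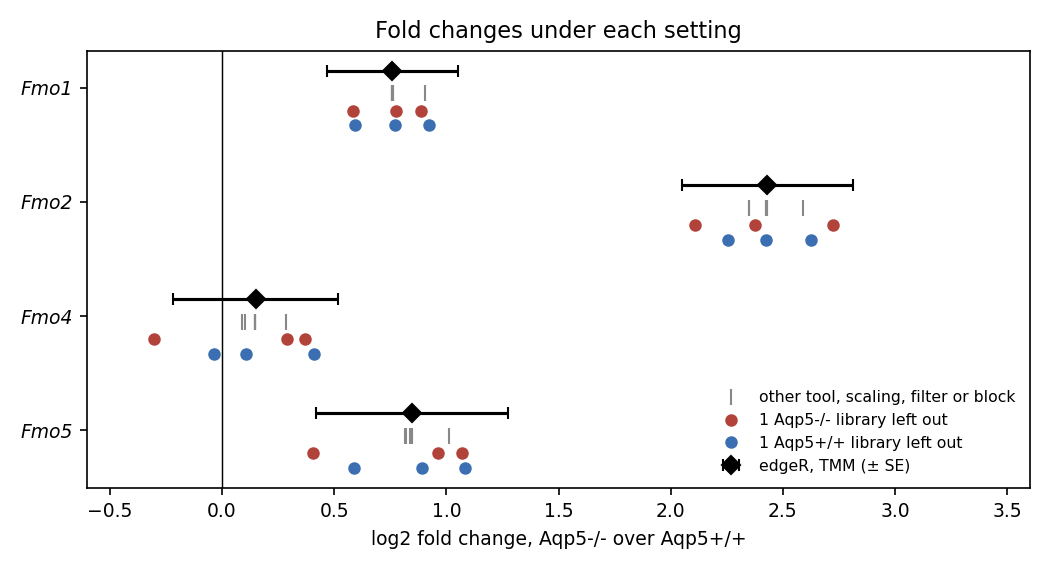
log2 fold changes, Aqp5-/- over Aqp5+/+ (horizontal axis), of the 4 enzymes with the standard error of the edgeR fit (diamonds), under the other tools, scalings, filters and the block (grey ticks), and with 1 library left out (circles). Fmo2 stays between 2.11 and 2.73, while Fmo4 falls on both sides of 0.

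Per kb of exon, which allows levels of different genes to be compared, Fmo5 was the highest and Fmo1 the second in all 6 libraries. Fmo5 was at 334 ± 155 CPM per kb in the Aqp5-/- libraries, against 186 ± 65.0 CPM per kb in the Aqp5+/+ libraries, and Fmo1 at 82.4 ± 17.1 CPM per kb in Aqp5-/- and 48.7 ± 11.05 CPM per kb in Aqp5+/+ livers (SD, n = 3 each). Within a library Fmo5 was 2.73-fold to 6.35-fold above Fmo1 in Aqp5-/- livers and 3.10-fold to 4.91-fold above it in Aqp5+/+ livers. Fmo2 was above Fmo4 in the 3 Aqp5-/- libraries and in 1 of the 3 Aqp5+/+ libraries. In Aqp5-/- livers Fmo2 was at 26.4 ± 11.4 CPM per kb and Fmo4 at 6.72 ± 3.15 CPM per kb, and in Aqp5+/+ livers Fmo2 was at 4.90 ± 1.27 and Fmo4 at 6.03 ± 1.85 CPM per kb (SD, n = 3 each). The ratio of Fmo2 to Fmo4 per kb was 3.18, 2.72 and 6.86 in Aqp5-/- replicates 1, 2 and 3, against 0.609, 1.41 and 0.640 in Aqp5+/+ replicates 1, 2 and 3. In Aqp5+/+ livers these neighbours in the order did not differ beyond their spread, whereas in Aqp5-/- livers Fmo2 exceeded Fmo4 in each library.

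**Figure D3:**
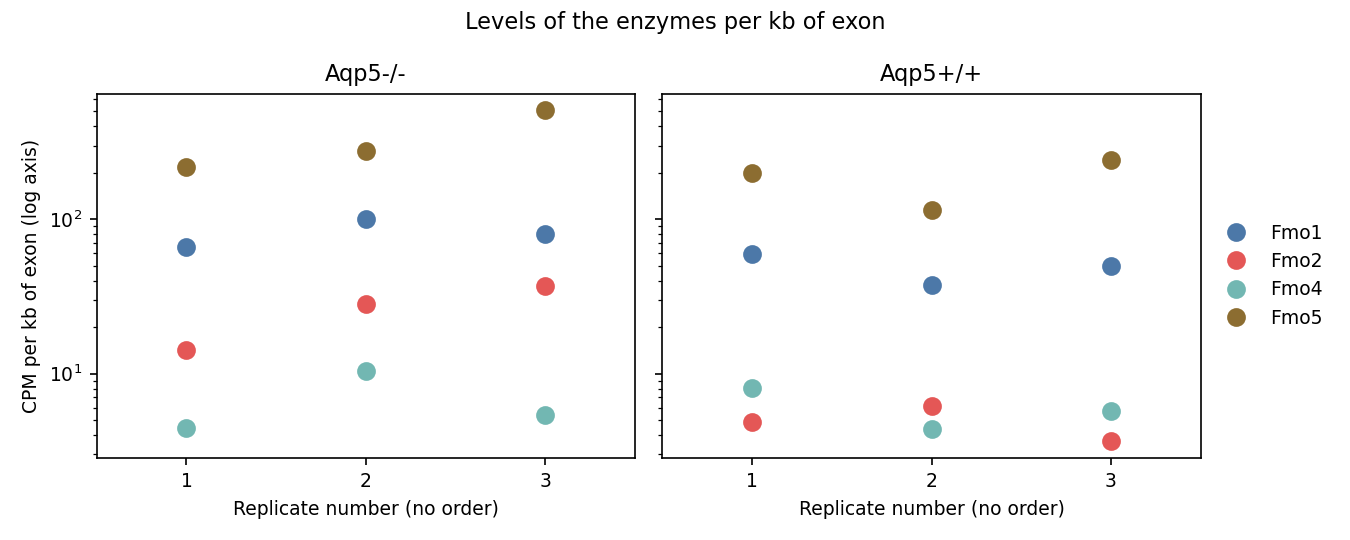
Level of each enzyme in CPM per kb of exon (log axis) in the 3 Aqp5-/- libraries (left panel) and the 3 Aqp5+/+ libraries (right panel), by replicate number. Fmo5 and Fmo1 keep the top places in all 6 libraries, and the ratio of Fmo2 to Fmo4 is 2.72 to 6.86 in the left panel and 0.609 to 1.41 in the right panel.

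Summed over the 4 enzymes, the level was 303, 414 and 632 CPM per kb in Aqp5-/- replicates 1, 2 and 3, against 271, 163 and 302 CPM per kb in Aqp5+/+ replicates 1, 2 and 3. The groups nearly touched, since Aqp5-/- replicate 1 and Aqp5+/+ replicate 3 differed by under 1 CPM per kb. Fmo5 made up 73.0 ± 7.16% of this sum in Aqp5-/- and 74.9 ± 5.07% in Aqp5+/+ livers, and Fmo1 made up 19.6 ± 6.13% in Aqp5-/- and 20.4 ± 3.46% in Aqp5+/+ livers (SD, n = 3 each). These shares overlapped between the genotypes. The share of Fmo2 was 5.77 ± 1.05% in Aqp5-/- and 2.27 ± 1.35% in Aqp5+/+ livers, and its groups did not overlap (4.68 to 6.78% against 1.20 to 3.79%). Fmo4 held 1.61 ± 0.830% in Aqp5-/- and 2.51 ± 0.561% in Aqp5+/+ livers (SD, n = 3 each), with overlap. In bulk RNA, a difference in the number of cells that express a gene and a difference in its RNA per cell cannot be told apart.

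The 4 enzymes did not share a single pattern over the libraries. Fmo1 was highest in Aqp5-/- replicate 2, as was Fmo4, whereas Fmo2 and Fmo5 were highest in Aqp5-/- replicate 3. Likeness was taken as the root mean square difference of log2 CPM over the 6 libraries after each gene was centred on its own mean. Between members it was smallest for Fmo1 and Fmo4 (0.39) and for Fmo1 and Fmo5 (0.42) and largest for Fmo2 and Fmo4 (1.26), although Fmo2 and Fmo4 lie in the same cluster. The measure also holds the size of the genotype difference, which was largest for Fmo2. The member nearest to Fmo2 was Fmo1 (0.93), of the same cluster, followed by Fmo5 (0.95). Of all tested genes, 4.44% were closer to Fmo2 than Fmo5 was, and 38.1% were closer to it than Fmo4 was. For Fmo1, 8.97% were closer than Fmo4, 13.0% closer than Fmo5 and 86.3% closer than Fmo2. Among 12133 genes outside the family that averaged 1 CPM or more, the nearest to Fmo2 were Tppp3, a tubulin-binding protein (0.31), and Slc24a3, a sodium, potassium and calcium exchanger (0.38). Tppp3 and Slc24a3 were near the limit of measurement, at 1.14 to 2.92 CPM in the Aqp5-/- libraries, against 0.163 to 0.671 CPM in the Aqp5+/+ libraries. Fmo1 was nearest to Zfp703, Erf and Trim8 (0.14 to 0.16), of which Erf is a repressor of the ETS family. Fmo5 was nearest to Ranbp1, which acts with the Ran GTPase (0.12), Rdh9, a retinol dehydrogenase (0.12), and Btg3 (0.14). Fmo4 was nearest to Ramp2, a partner of the calcitonin receptor-like receptor (0.13), Trnau1ap and Sgsm3 (0.18 each). These lists describe 6 libraries and carry no test.

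The genes around both loci were examined for differences like that of Fmo2. Within 500 kb of the chromosome 1 cluster 5 genes outside the family were tested, and edgeR called 0 of them, 0 of them having an unadjusted p under 0.05. Their log2 fold changes ran from -0.19 for Prrc2c to 1.06 (standard error 0.95) for Prrx1, with a median of 0.29. Around Fmo5, 7 genes were tested and edgeR called 0, again with 0 at an unadjusted p under 0.05, and their log2 fold changes lay between -0.35 and 0.35. The smallest adjusted p at either locus was 0.71 (Acp6, edgeR). Since edgeR called 0.332% of all tested genes, nothing is read from 0 called among so few. The gene closest to Fmo5, Prkab2, a regulatory subunit of AMP-activated kinase, had a log2 fold change of 0.35 (standard error 0.37).

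The chemistry of these enzymes depends on flavin, NADPH and partner enzymes, and 44 such genes in 7 lists were tested beside them. Of the 44, edgeR called 0 in either direction and limma 0, while DESeq2 called 3 lower and 0 higher. Over all tested genes edgeR called 0.332%, so 0 of 44 is not read as a result. DESeq2 called 114 of 12334 genes higher and 126 lower. Of the 44, 1 was higher and 6 were lower at an unadjusted p under 0.05 by edgeR. The share of all genes under that p is not given here, so these counts are only a description. The median log2 fold change of the 44 was -0.03. None of the 44 had a log2 fold change above that of Fmo2, and that of Aox3 was larger in size in the other direction. For the supply of flavin, Flad1, the FAD synthase, was at 17.4 to 18.9 CPM in the Aqp5-/- libraries, against 22.4 to 25.2 CPM in the Aqp5+/+ libraries (adjusted p = 0.60, edgeR). Slc52a3, a riboflavin transporter, was at 0.487 to 4.05 CPM in the Aqp5-/- libraries, against 0 to 1.17 CPM in the Aqp5+/+ libraries (adjusted p = 0.63, edgeR). For NADPH, G6pdx, the first enzyme of the pentose phosphate pathway, was at 14.4 ± 6.32 CPM in the Aqp5-/- libraries, against 4.98 ± 1.99 CPM in the Aqp5+/+ libraries (SD, n = 3 each). The log2 fold change of G6pdx was 1.52 (adjusted p = 0.35, edgeR), and that of Pgd, a later NADPH-forming enzyme of the same pathway, was 0.54 (adjusted p = 0.62, edgeR). Por, the reductase that feeds microsomal P450 enzymes from NADPH, had a log2 fold change of 0.59 (standard error 0.35) and Cyb5b, an outer mitochondrial cytochrome b5, one of -0.97 (standard error 0.42), with adjusted p values of 0.64 and 0.56 from edgeR.

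The lowest fold change of the 44 was that of another oxidase of nitrogen compounds. Aox3, an aldehyde oxidase of mouse liver that also oxidizes nitrogen heterocycles, was at 376, 378 and 157 CPM in Aqp5-/- replicates 1, 2 and 3, against 1640, 2381 and 1060 CPM in Aqp5+/+ replicates 1, 2 and 3. Its groups did not overlap, its log2 fold change was -2.48 (standard error 0.46), and its adjusted p of 0.12 from edgeR missed the threshold. Aox1, the related aldehyde oxidase, was at 183 ± 19.2 CPM in the Aqp5-/- libraries, against 407 ± 106 CPM in the Aqp5+/+ libraries (SD, n = 3 each; adjusted p = 0.26, edgeR). Csad, the decarboxylase that makes the hypotaurine which FMO1 can oxidize, was at 10.2, 19.0 and 14.2 CPM in Aqp5-/- replicates 1, 2 and 3, against 18.8, 106 and 50.5 CPM in Aqp5+/+ replicates 1, 2 and 3. These groups overlapped narrowly, and the adjusted p was 0.33 by edgeR. Slc6a6, the taurine transporter, had a log2 fold change of 0.42 (adjusted p = 0.67, edgeR). Tpmt, a methyltransferase that acts on thiopurines, had a log2 fold change of -0.89 (adjusted p = 0.37, edgeR). Among enzymes that undo S-oxidation, Msrb3, a methionine sulfoxide reductase, and Txnrd1, a thioredoxin reductase, had log2 fold changes of 0.48 and 0.33 (adjusted p = 0.74 and 0.76, edgeR).

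**Figure D4:**
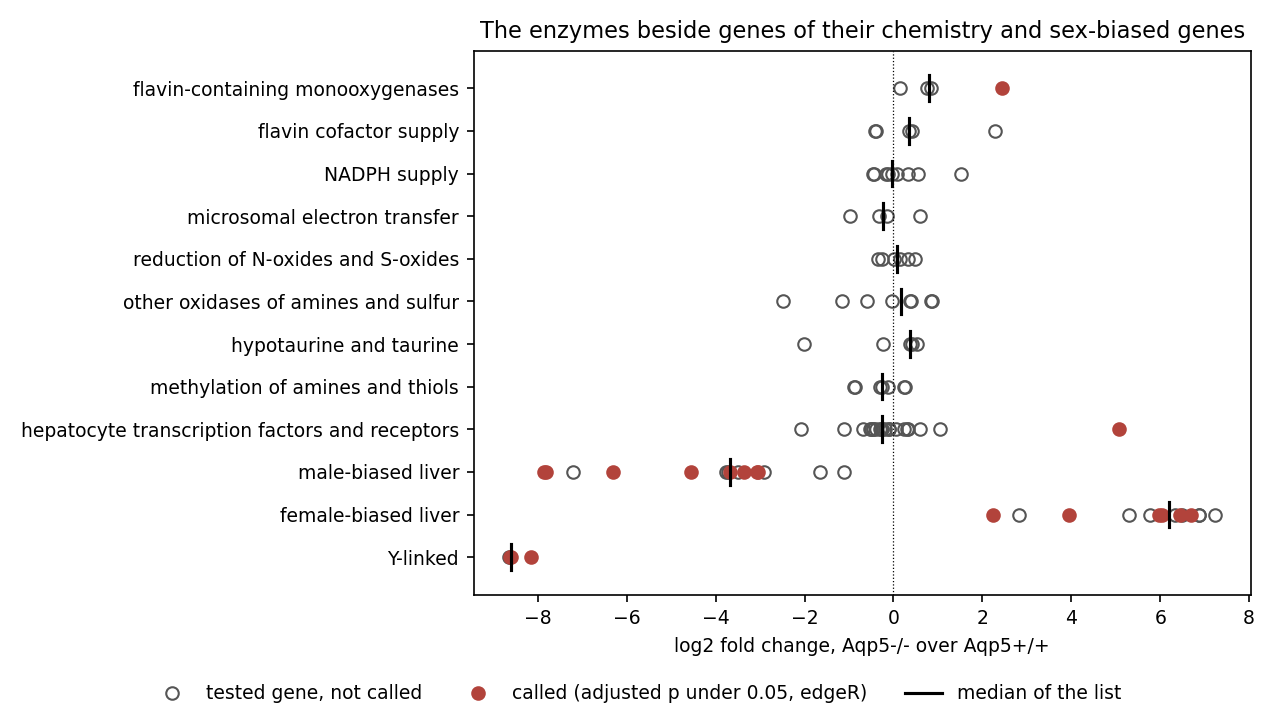
log2 fold changes, Aqp5-/- over Aqp5+/+ (horizontal axis), with a circle for each tested gene of the monooxygenases and of 11 gene lists, filled where called by edgeR, and a line at each list's median. Fmo2 is at 2.43, and the 7 lists of flavin, NADPH and partner chemistry hold 0 called genes, beside 0.332% of all tested genes. The sex-biased and Y-linked lists have medians of -3.67, 6.19 and -8.61.

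Of 21 tested transcription factors and receptors of hepatocytes, Cux2 rose, 0 fell and 20 did not pass the test by edgeR, while DESeq2 called 1 higher and 1 lower. Cux2, a repressor that is expressed in female liver, was at 44.4, 109 and 32.97 CPM in Aqp5-/- replicates 1, 2 and 3, against 1.34, 3.90 and 0.732 CPM in Aqp5+/+ replicates 1, 2 and 3, with an adjusted p = 0.033 by edgeR. With Aqp5-/- replicate 2 or any single Aqp5+/+ library left out, and with no filter on low counts, 0 of these regulators were called higher. The median log2 fold change of these regulators was -0.26.

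Genes with sex-biased expression in mouse liver also differed between the genotypes. Of 14 tested female-biased genes 6 rose and 0 fell, and of 15 tested male-biased genes 8 fell and 0 rose by edgeR. Over all tested genes edgeR called 0.154% higher and 0.178% lower. DESeq2 called 14 of the female-biased genes higher and 14 of the male-biased genes lower, and with no filter on low counts edgeR called 2 and 6. With 1 library left out these counts ran from 0 (without Aqp5+/+ replicate 1) to 10 (without Aqp5-/- replicate 3) for the female-biased genes, and from 0 (without Aqp5-/- replicate 2 or Aqp5+/+ replicate 1) to 7 for the male-biased genes, while 3 of the 4 Y-linked genes were lower in each of these fits. The female-biased genes summed to 4149, 4404 and 741 CPM in Aqp5-/- replicates 1, 2 and 3, against 58.6, 73.1 and 68.0 CPM in Aqp5+/+ replicates 1, 2 and 3. Among them Cyp17a1, the steroid 17-alpha-hydroxylase, was at 101.6, 99.0 and 204 CPM in Aqp5-/- replicates 1, 2 and 3, against 6.04, 9.76 and 10.4 CPM in Aqp5+/+ replicates 1, 2 and 3 (adjusted p = 0.011, edgeR). The male-biased genes summed to 481 to 1552 CPM in the Aqp5-/- libraries, against 10890 to 13026 CPM in the Aqp5+/+ libraries. Among the Aqp5-/- libraries, replicate 3 had the lowest sums of female-biased and of male-biased genes and the highest levels of Cyp17a1 and Fmo2. The 7 markers of Kupffer cells and macrophages summed to 684 to 1480 CPM in the Aqp5-/- libraries, against 314 to 557 CPM in the Aqp5+/+ libraries. Of their 6 tested genes edgeR called 0, limma 0 and DESeq2 4 (higher), and 5 were higher at an unadjusted p under 0.05. The share of all tested genes under that p is not given here. Neutrophil markers summed to 27.1 to 84.2 CPM in the Aqp5-/- libraries, against 2.85 to 19.1 CPM in the Aqp5+/+ libraries, with 1 of 4 tested genes called higher (Ngp, a granule protein; 0 called with any single library left out), and Aqp5-/- replicate 3 was the highest for both lists. Markers of pericentral hepatocytes summed to 5829, 9371 and 2665 CPM in Aqp5-/- replicates 1, 2 and 3, against 10237 to 11368 CPM in Aqp5+/+ libraries, with 0 of 7 called by edgeR, DESeq2 or limma and 0 at an unadjusted p under 0.05. Erythroid markers summed to 47.8 to 83.1 CPM in the Aqp5-/- libraries, against 68.2 to 146 CPM in the Aqp5+/+ libraries, with 1 of 4 tested genes called lower. This was Alas2, which starts heme synthesis in red cell precursors, at 17.0, 12.8 and 11.01 CPM in Aqp5-/- replicates 1, 2 and 3, against 60.5, 48.2 and 80.5 CPM in Aqp5+/+ replicates 1, 2 and 3 (adjusted p = 0.025, edgeR), and 0 erythroid markers were called without Aqp5-/- replicate 2, Aqp5+/+ replicate 1 or Aqp5+/+ replicate 3 or with the replicate block. None of these markers was at 0 in all libraries, and their part in the values of the 4 enzymes was not tested.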

How the data were processed

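RNA-seq of liver at 72 h after 70% PHx was used (6 libraries, 3 per genotype). The authors made the raw counts per gene with HTSeq, and these deposited counts were used unchanged. The submitters' processing notes name cutadapt 1.9.3, HISAT2 2.0.4 and mm10. Whether counting used strand is not given in the sources used here. A further block of log2 values, normalized by the authors with edgeR, was not used. Some genes, among them the targeted gene, are not reported here.

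Genes were kept by filterByExpr (minimum count 10, minimum total count 15), which left 12353. Counts were scaled by TMM (factors 0.909 to 1.08) and compared by the robust quasi-likelihood test of edgeR 4.0.16 in R 4.3.3, 2-sided and without a covariate, with Benjamini-Hochberg adjustment over all tested genes. Since separate mice are not stated, a p-value reflects variation among libraries that could be technical. A call needed an adjusted p below 0.05. On data simulated from these libraries (12353 genes), 8.82, 59.1 and 92.4% of genes changed 2-fold, 4-fold and 8-fold were recovered. Exon lengths and positions came from GENCODE vM21 on GRCm38, the assembly of mm10, and promoters from RefSeq (GRCm38.p6), which held 3 of the 4 members. Log2 CPM used a prior count of 2. The members and lists were chosen with earlier results of these data known. Genes named were the 4 members, each list's called genes or else its 2 smallest p (up to 3 called for sex-linked lists, up to 2 for marker lists), and the 3 nearest profiles per member among genes with a mean of at least 1 CPM outside the family. Alternatives were DESeq2 1.42.0, limma 3.58.1, RLE factors, library totals, no filter, a mean of 1 CPM, the replicate block and leaving out each library.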

Additional observations from a re-analysis of the deposited data

How the results depend on the processing

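The log2 fold changes of Fmo1, Fmo2, Fmo4 and Fmo5 moved by less than the spread between replicates under 7 other tools, scalings, filters and the block and with each library left out. Leaving out 1 library gave 0.58 to 0.92 for Fmo1, 2.11 to 2.73 for Fmo2, -0.30 to 0.41 for Fmo4 and 0.41 to 1.09 for Fmo5. Without Aqp5-/- replicate 3 and Aqp5+/+ replicate 2 together, chosen after seeing the data, Fmo5 was at 0.16, Fmo2 was called, and 42 genes were called higher and 59 lower. With library totals alone the median of all genes was 0.17 in place of 0.01, and Fmo1, Fmo2, Fmo4 and Fmo5 stood 0.73, 2.42, 0.12 and 0.84 above it.

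The count of family members called was 1, and 0 with a filter at a mean of 1 CPM, 0 with the replicate block and 0 to 1 with a library left out. The cause was not tested. The 19 genes called higher and 22 called lower were 114 and 126 with DESeq2, 11 and 23 with no filter, 0 to 22 and 3 to 23 with a library left out, and 16 and 23 with the replicate block. Deviations from the group mean correlated at -0.063, 0.232 and 0.149 between libraries sharing replicate number 1, 2 and 3. Libraries of unlike number reached at most 0.0856. Replicates 2 and 3 of both genotypes correlated best with their own number, and replicate 1 of either genotype did not. Whether the numbers pair the libraries was therefore not settled. Of 924 list values under the alternatives 62 changed beyond the spread or by more than 1.5 times. Several list medians changed sign, among them those of cholangiocyte markers (-0.33 without Aqp5-/- replicate 3, against 2.13 with all libraries), stellate cell and fibroblast markers (-0.02 against 0.22) and hypotaurine and taurine genes (-0.01 against 0.37) without that library, and that of NADPH supply (0.14 with library totals, against -0.02).

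Fmo4 rested on 108 to 440 counts per library. The simulation recovered 8.82% of genes changed 2-fold, drawn at random among those with a mean of at least 1 CPM. Most differences of that size among such genes would thus be missed. The genes were not matched to the level or spread of any member, so no detection limit for Fmo1, Fmo4 or Fmo5 follows.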
